A study of Sus scrofa with 13 samples.

Results

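Blood vascular endothelial genes were examined in RNA-seq libraries of vein from pigs with an arteriovenous fistula, an artery-to-vein connection made for haemodialysis access. Of 32 endothelial genes named by symbol, 29 had a protein-coding row of that name among the 30477 genes of the table. EGFL7, EMCN and APLNR had none, and EGFL7 and APLNR were not analysed here. Treated pigs carried PLGA, a biodegradable polymer, in a hydrogel with 1α,25-dihydroxyvitamin D3 (labelled 1,25 NP; 8 libraries, 5 from males and 3 from females). Vehicle pigs carried the PLGA and hydrogel without the hormone (5 libraries, 2 from males and 3 from females). The question was how the hormone altered gene expression in the vein. The sources used here do not give breed, age, dose or time of sampling. Levels are in RPKM, reads scaled by gene length and library depth. Each library was recovered to hold between 30261776 and 50271231 reads, and libraries are named below by the animal code of the column header.

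Endothelium is the single cell layer that lines every blood vessel. Its cells are held together by VE-cadherin and claudin-5, read blood flow and growth factors through receptor tyrosine kinases of the VEGF, TIE and Eph families, and release nitric oxide, endothelin and von Willebrand factor. Transcription factors of the ETS and SOXF families maintain this identity, and in a vein used as a fistula the lining is exposed to arterial flow.

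In 1,25 NP veins most endothelial genes had a lower mean log2 level than in vehicle veins, but none passed a test adjusted over all genes. Of the 29 genes, 23 were lower and 6 higher in 1,25 NP. The lower share was 79.3%, where 56.2% of the 14579 genes tested were lower and 43.8% higher. The median log2 difference (1,25 NP minus vehicle, of log2(RPKM + 0.5), a scale that understates the change of low genes) was -0.39 over the endothelial genes and -0.071 over all genes. limma, adjusted over all genes tested, called 0 of the 29 at an adjusted p of 0.05, beside 0.0% of all genes. The adjusted p-values ran from 0.795 to 0.998. At an unadjusted p under 0.05, 2 of the 29 passed (6.90%), both lower, beside 3.21% of all genes that passed in that direction. The voom form of limma, run on recovered reads, called 0 as well, with 2 at an unadjusted p under 0.05. For no endothelial gene did all 8 treated libraries lie outside the vehicle range. Over all genes, 0.0823% lay entirely below it and 0.0137% entirely above it. In whole tissue, fewer endothelial cells and less of a transcript per cell cannot be told apart.

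**Figure D1:**
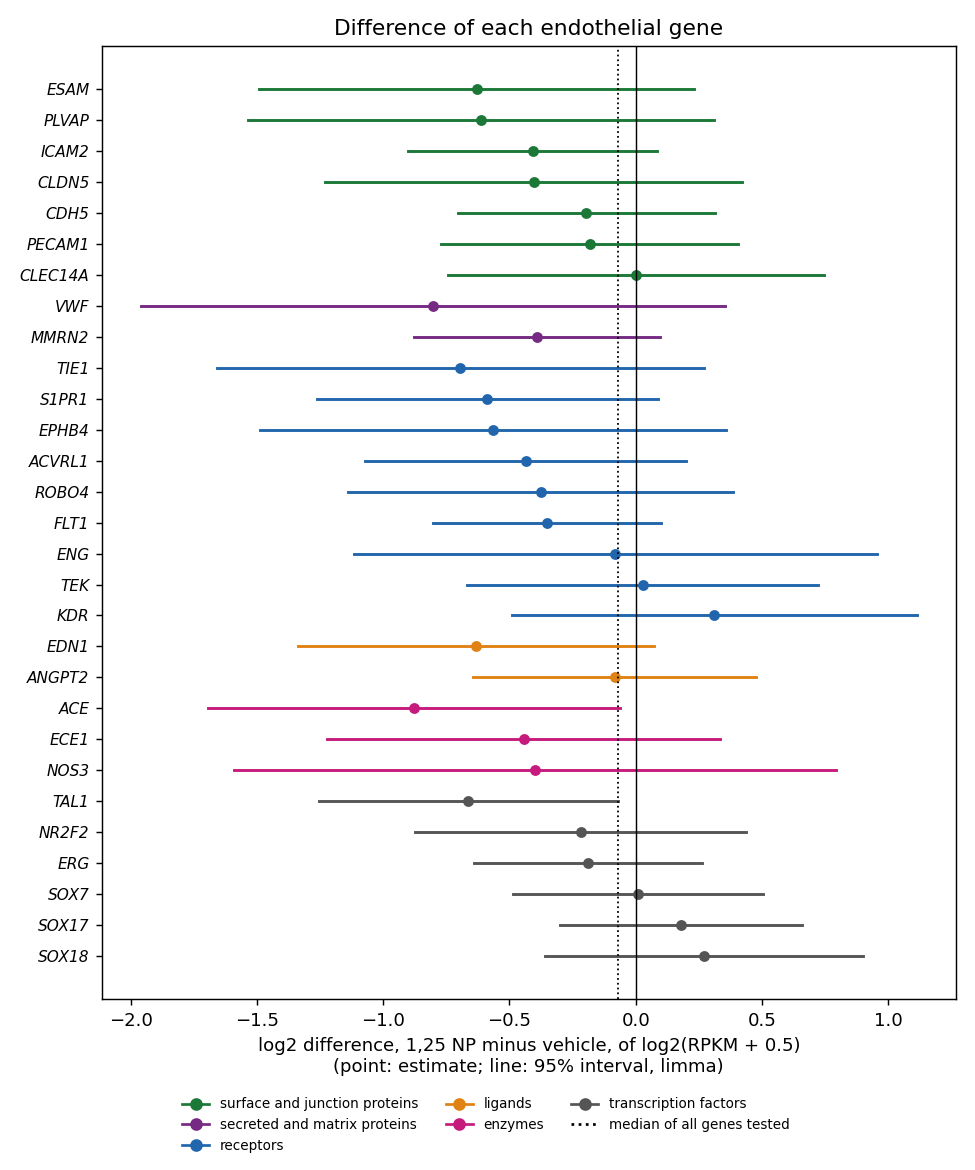
Log2 difference of each endothelial gene (1,25 NP minus vehicle; horizontal axis) with its 95% interval from limma, coloured by role; the dotted line is the median of all genes tested, -0.071. Of the 29 points, 23 lie below 0, and the intervals of ACE and TAL1 are the 2 that do not reach 0.

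The mean of log2(RPKM + 0.5) over the 29 genes was 3.01 ± 0.41 (SD, n = 8) in 1,25 NP veins and 3.34 ± 0.18 (SD, n = 5) in vehicle veins, a difference of -0.33. The treated libraries ran from 2.28 through a median of 3.13 to 3.45. The vehicle libraries P13 to P17 had 3.59, 3.09, 3.32, 3.34 and 3.36. The groups overlapped, and the lowest treated values were those of P31 (2.28), P42 (2.60) and P32 (2.86), which lay below every vehicle library. Without P31 the difference was -0.22. No test was made on this mean, because the genes were chosen with results of these data known.

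By role, the mean of the surface and junction genes was 3.71 ± 0.53 in 1,25 NP veins and 4.06 ± 0.22 in vehicle veins. The receptors averaged 3.22 ± 0.46 in 1,25 NP veins and 3.53 ± 0.26 in vehicle veins. For the enzymes the means were 2.86 ± 0.65 in 1,25 NP veins and 3.44 ± 0.64 in vehicle veins. The transcription factors were closest between the groups, at 1.99 ± 0.19 in 1,25 NP veins and 2.09 ± 0.28 in vehicle veins (SD, n = 8 and 5 throughout). Enzymes and the pair of secreted proteins thus had the widest gaps, -0.57 and -0.60, and the transcription factors the narrowest, -0.10. The treated SD was more than the vehicle SD for the surface, secreted and receptor groups, nearly equal for the enzymes, and less for the ligands and transcription factors.

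**Figure D2:**
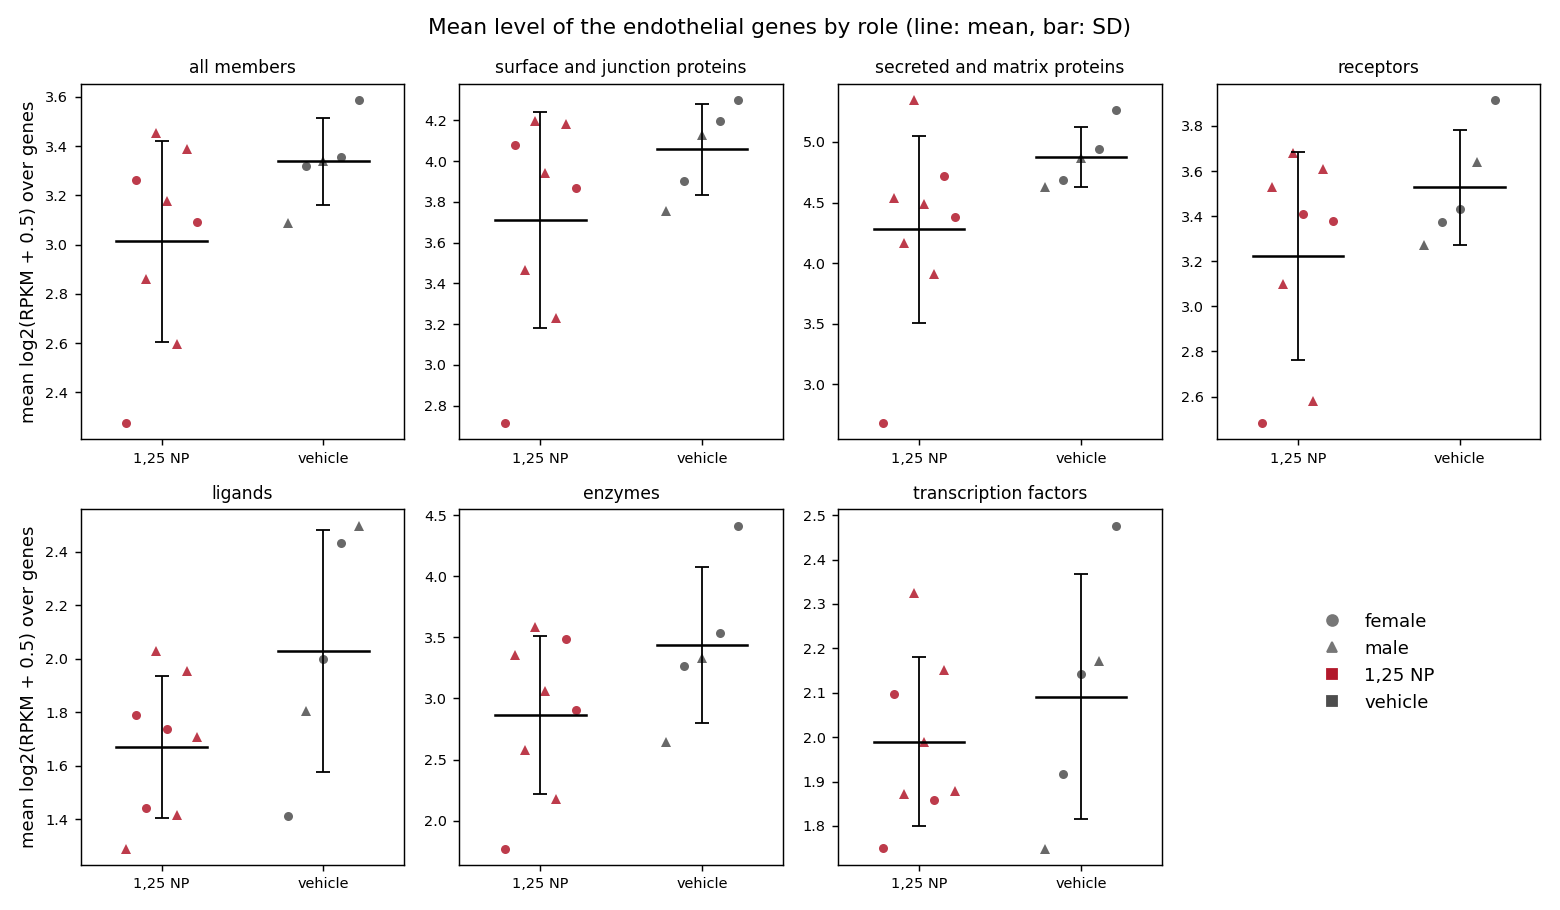
Mean log2(RPKM + 0.5) over all endothelial genes and over each role (vertical axis) in 1,25 NP and vehicle libraries; each point is 1 library, circles are females and triangles males, lines are means and bars SD. The groups overlap in every panel, and the treated mean over all genes, 3.01, sits below the vehicle mean, 3.34.

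Among surface and junction proteins, PECAM1, an adhesion molecule of endothelial contacts that platelets and leukocytes also carry, had the highest level of the 29. It was at 34.8 RPKM at the lowest, 60.9 at the median and 86.1 at the highest in 1,25 NP veins, and at 55.9, 51.7, 94.1, 67.5 and 67.4 RPKM in vehicle veins P13 to P17. Treated libraries P28, P31 and P42 lay below all vehicle libraries, and the remaining 5 fell inside the vehicle range. The log2 difference was -0.18 (SE 0.28, limma, adjusted p = 0.829), with a 95% interval of 0.586- to 1.33-fold. It was -0.054 without vehicle P15. The PECAM1 row overlaps those of DDX5, MILR1 and POLG2, and whether the counting used strand is not known here.

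CDH5 encodes VE-cadherin, the adherens junction protein that defines the endothelium. Its levels were 15.7, 24.9 and 39.4 RPKM (lowest, median and highest) in 1,25 NP veins and 29.9, 26.4, 30.7, 24.4 and 30.4 RPKM in vehicle veins. The vehicle libraries were tight, and the treated ones spread to both sides, 4 below and 2 above the vehicle range. The log2 difference was -0.20 (SE 0.24, limma, adjusted p = 0.804), and the interval of 0.614- to 1.24-fold leaves out a halving. Without P31 the log2 difference was -0.11. Every library thus expressed the defining junction gene.

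ICAM2, a ligand of leukocyte integrins, had 2.47, 4.44 and 5.62 RPKM (lowest, median and highest) in 1,25 NP veins and 5.94, 4.37, 4.20, 7.59 and 5.67 RPKM in vehicle veins. The groups overlapped, with 3 treated libraries below all vehicle ones (log2 difference -0.41, SE 0.23, limma, adjusted p = 0.795). Its row, ENSSSCG00000039909 at chromosome 12, 14881923 to 14997426 in the coordinates of the table, spans 115504 bases, and the reference table gives that identifier the symbol ERN1. The value may therefore not be that of ICAM2 alone. CLEC14A, a lectin-family surface protein of endothelium, had 12.8 ± 5.85 RPKM in 1,25 NP veins and 12.3 ± 4.63 RPKM in vehicle veins (log2 difference 0.0026, SE 0.35, limma, adjusted p = 0.998). CLEC14A had 4.83, 11.9 and 22.3 RPKM (lowest, median and highest) in treated libraries and 12.04, 6.89, 14.9, 8.99 and 18.5 RPKM in vehicle ones. P31 was below and P28 above the whole vehicle range, and the interval, 0.598- to 1.68-fold, is as wide upward as downward.

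The remaining surface genes were lower by their means. ESAM, an adhesion molecule of tight junctions, had 12.99 ± 6.90 RPKM in 1,25 NP veins and 21.6 ± 16.9 RPKM in vehicle veins, where P17 alone stood at 51.7 RPKM. PLVAP forms the diaphragms of fenestrae and caveolae and had 17.4 ± 9.74 RPKM in 1,25 NP veins and 24.5 ± 10.1 RPKM in vehicle veins. The tight junction gene CLDN5 had 4.50 ± 2.17 RPKM in 1,25 NP veins and 5.80 ± 2.35 RPKM in vehicle veins. Single libraries weighed on these: ESAM differed by -0.63, and by -0.26 without P17, while CLDN5 differed by -0.40, and by -0.18 without P31. Within this role 6 of 7 genes were lower, with a median log2 difference of -0.40, and 0 passed.

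**Figure D3:**
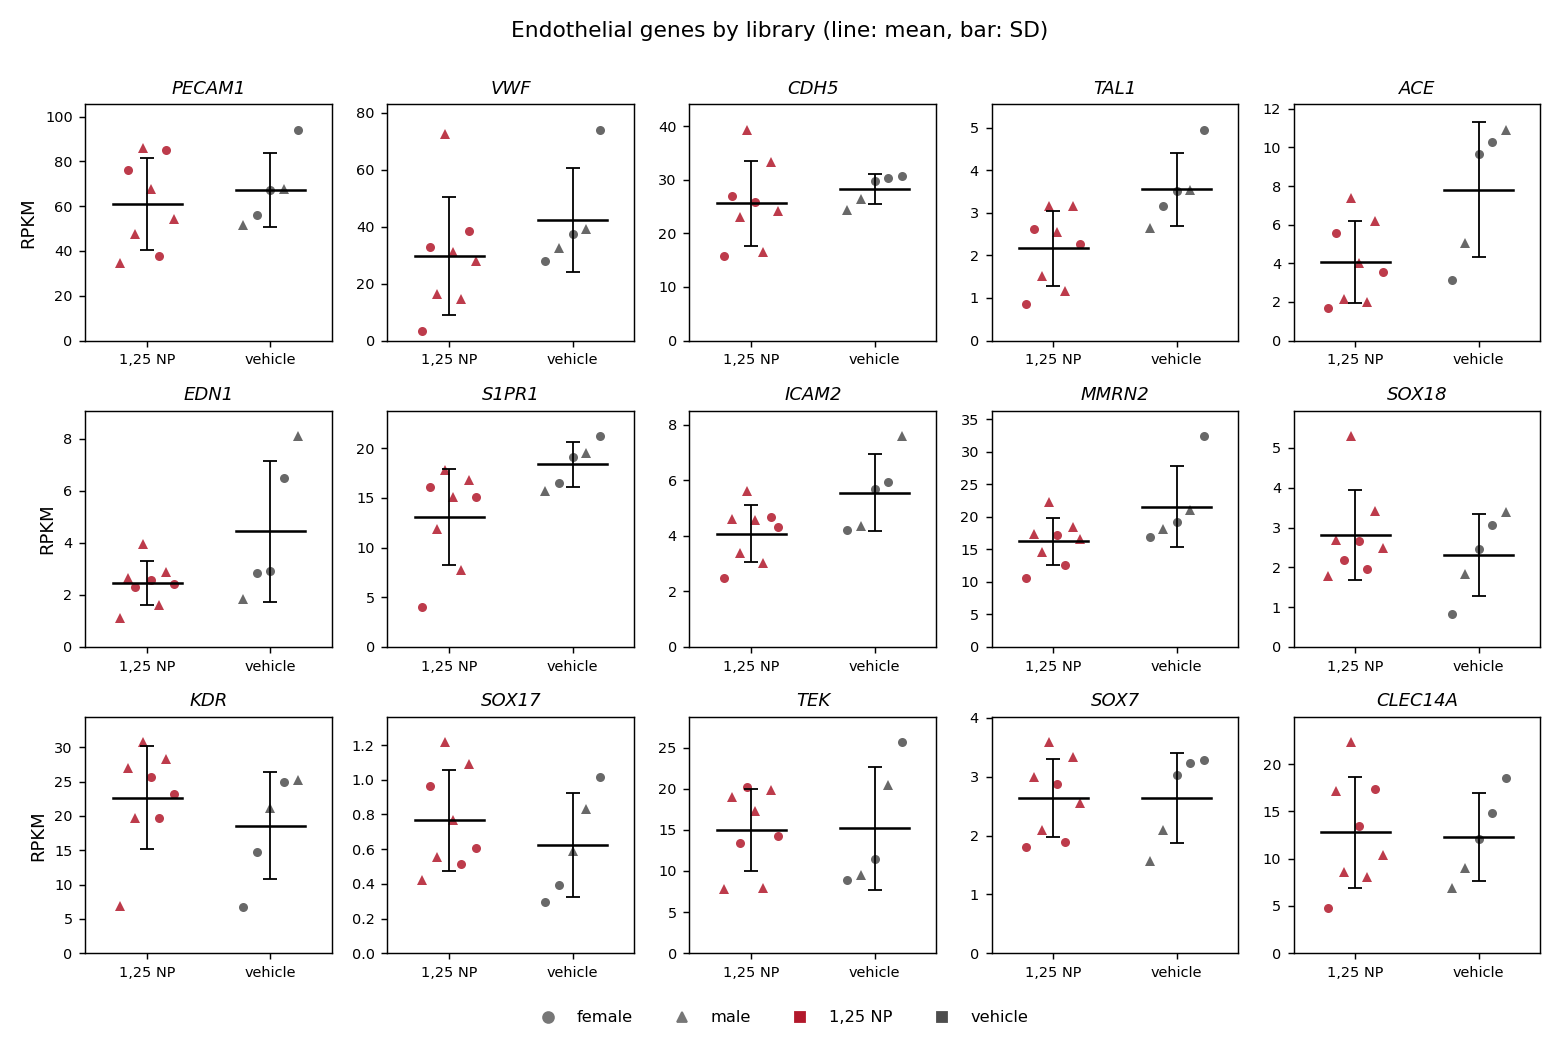
RPKM (vertical axes, from 0) of 15 endothelial genes in 1,25 NP and vehicle libraries: 3 defining markers, the 6 lower and the 6 higher genes with the smallest unadjusted p. Each point is 1 library (circles female, triangles male), lines are means and bars SD; in TAL1 6 of 8 treated libraries lie below all vehicle libraries, and in every panel the groups overlap.

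Of the secreted proteins, VWF encodes von Willebrand factor, the clotting protein stored in endothelial granules and in platelets. VWF had 3.20, 29.4 and 72.4 RPKM (lowest, median and highest) in 1,25 NP veins and 74.0, 32.4, 28.0, 39.2 and 37.4 RPKM in vehicle veins. P31 held the lowest value of all 13 libraries, followed by P42 at 14.5 and P32 at 16.5, while P28 stood near vehicle P13 at the top. VWF differed by -0.80 on the log2 scale (SE 0.54, limma, adjusted p = 0.795). It was -0.43 without P31 and -1.04 without P28. The row, ENSSSCG00000000712 at chromosome 5, 64519186 to 65002098, spans 482913 bases and has the symbol ANO2 in the reference table, so other transcripts may share it. MMRN2, an extracellular matrix glycoprotein laid down by endothelium, had 10.6, 17.0 and 22.3 RPKM (lowest, median and highest) in 1,25 NP veins and 19.2, 18.2, 32.4, 21.01 and 16.97 RPKM in vehicle veins. Its groups overlapped, with 4 treated libraries below all vehicle ones and vehicle P15 highest (log2 difference -0.39, SE 0.23, limma, adjusted p = 0.795; -0.24 without P15).

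Receptors of vascular growth factors did not move as a set. KDR, the main signalling receptor of VEGF, had 6.89, 24.5 and 30.7 RPKM (lowest, median and highest) in 1,25 NP veins and 14.8, 25.3, 24.9, 21.2 and 6.78 RPKM in vehicle veins. P28 among treated and P17 among vehicle pigs were the lowest, and 4 treated libraries exceeded every vehicle one. KDR differed by 0.31 on the log2 scale (SE 0.38, limma, adjusted p = 0.803), 0.53 without P28 and -0.0027 without P17. FLT1, the VEGF receptor that mainly sequesters the ligand, averaged 7.25 ± 1.37 RPKM in 1,25 NP veins and 9.45 ± 2.20 RPKM in vehicle veins (log2 difference -0.35, SE 0.21, limma, adjusted p = 0.795).

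TEK encodes TIE2, the receptor of the angiopoietins. TEK was at 7.82, 15.8 and 20.2 RPKM (lowest, median and highest) in 1,25 NP veins and at 8.87, 9.54, 25.6, 20.4 and 11.5 RPKM in vehicle veins. The groups covered nearly the same range (log2 difference 0.028, SE 0.33, limma, adjusted p = 0.979), with an interval of 0.630- to 1.65-fold. TIE1, its co-receptor with no ligand of its own, averaged 5.96 ± 3.87 RPKM in 1,25 NP veins and 8.81 ± 4.27 RPKM in vehicle veins (log2 difference -0.69, SE 0.45, limma, adjusted p = 0.795; -0.46 without P13). The TIE1 values of P31 and P42, 1.33 and 1.96 RPKM, were the lowest of all libraries.

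S1PR1 encodes the receptor through which sphingosine 1-phosphate in plasma strengthens endothelial contacts. S1PR1 had 4.06, 15.1 and 17.8 RPKM (lowest, median and highest) in 1,25 NP veins and 21.2, 15.7, 16.5, 19.5 and 19.1 RPKM in vehicle veins. All 8 treated libraries lay below the vehicle mean and 5 below every vehicle library, although the upper 3 reached into the vehicle range. S1PR1 differed by -0.59 on the log2 scale (SE 0.32, limma, adjusted p = 0.795), and it was -0.38 without P31.

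Receptors of the BMP9 pathway and of guidance cues completed the group. ACVRL1, the type I receptor ALK1, averaged 7.55 ± 2.75 RPKM in 1,25 NP veins and 10.3 ± 3.78 RPKM in vehicle veins. Its co-receptor ENG, endoglin, averaged 17.0 ± 14.3 RPKM in 1,25 NP veins and 16.0 ± 8.498 RPKM in vehicle veins, and treated P28 alone was at 49.9 RPKM. ENG had a log2 difference of -0.082 (SE 0.49), which was 0.14 without vehicle P13 and -0.35 without P28. EPHB4, the receptor of venous identity, averaged 7.00 ± 4.77 RPKM in 1,25 NP veins and 9.81 ± 5.59 RPKM in vehicle veins. ROBO4, an endothelial member of the roundabout family, averaged 5.05 ± 2.95 RPKM in 1,25 NP veins and 6.25 ± 2.62 RPKM in vehicle veins. Without P13, EPHB4 differed by -0.30 in place of -0.57 and ROBO4 by -0.17 in place of -0.38, and without P16 ACVRL1 by -0.27 in place of -0.44. Of the 9 receptors 7 were lower and 2 higher, with a median log2 difference of -0.38 and 0 past the test.

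Of the ligands, EDN1 encodes the vasoconstrictor endothelin-1. EDN1 had 1.11, 2.49 and 3.95 RPKM (lowest, median and highest) in 1,25 NP veins and 2.83, 1.85, 2.91, 8.10 and 6.50 RPKM in vehicle veins. Vehicle P16 and P17 stood above all other libraries, and the other 3 vehicle values lay within the treated range. EDN1 differed by -0.63 on the log2 scale (SE 0.33, limma, adjusted p = 0.795), and -0.39 without P16. ANGPT2, the angiopoietin that endothelial cells store and that counteracts TIE2 signalling in many settings, averaged 3.20 ± 0.93 RPKM in 1,25 NP veins and 3.48 ± 1.18 RPKM in vehicle veins (log2 difference -0.084, SE 0.26, limma, adjusted p = 0.911).

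The enzymes included the gene with the largest difference of the 29. ACE encodes angiotensin-converting enzyme, which makes angiotensin II on the endothelial surface and is also made by macrophages. ACE had 1.68, 3.78 and 7.37 RPKM (lowest, median and highest) in 1,25 NP veins and 10.3, 5.03, 9.69, 10.9 and 3.13 RPKM in vehicle veins. Vehicle P13, P15 and P16 exceeded all 8 treated libraries, whereas vehicle P14 and P17 lay among them. ACE differed by -0.88 on the log2 scale (SE 0.38), with a 95% interval of 0.309- to 0.957-fold, an unadjusted p of 0.0363 and an adjusted p of 0.795 (limma). The row, ENSSSCG00000017296, lies at chromosome 12, 15394487 to 15414639. Beside it, 5 of 6 tested macrophage markers were lower, and their summed level ran from 230 to 549 RPKM in 1,25 NP veins and from 193 to 921 RPKM in vehicle veins, P16 being highest. The part of these cells in the ACE values was not tested.

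NOS3 and ECE1 were highest in the same libraries, vehicle P13 and P17 and treated P28. NOS3, endothelial nitric oxide synthase, averaged 3.77 ± 3.43 RPKM in 1,25 NP veins and 5.25 ± 5.13 RPKM in vehicle veins. Its high values were 11.3 RPKM in treated P28 and 13.9 RPKM in vehicle P13, and the other 11 libraries were between 0.729 and 5.99 RPKM. The log2 difference was -0.40 (SE 0.56, limma, adjusted p = 0.819), and 0.031 without P13. ECE1, the protease that matures endothelin, averaged 30.1 ± 13.1 RPKM in 1,25 NP veins and 41.7 ± 20.6 RPKM in vehicle veins (log2 difference -0.44, SE 0.37, limma, adjusted p = 0.795; -0.25 without P17 and -0.27 without P13).

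Among transcription factors, TAL1 had the smallest unadjusted p of the 29. TAL1 is a helix-loop-helix factor of blood and endothelial development that erythroid cells also express. It had 0.854, 2.41 and 3.17 RPKM (lowest, median and highest) in 1,25 NP veins and 4.95, 3.53, 3.51, 2.65 and 3.15 RPKM in vehicle veins. All 8 treated libraries were below the vehicle mean and 6 below every vehicle library. The remaining treated pair, P21 and P23, reached 3.17 and 3.15 RPKM. TAL1 differed by -0.66 on the log2 scale (SE 0.28), with a 95% interval of 0.419- to 0.952-fold, an unadjusted p of 0.0307 and an adjusted p of 0.795 (limma). It ran from -0.75 to -0.54 when single libraries were left out. The row, ENSSSCG00000035847, lies at chromosome 6, 164281737 to 164297637. Beside it, all 3 tested erythrocyte markers were lower, each at an unadjusted p under 0.05 (0 called), and the summed level of that list ran from 5.80 to 68.9 RPKM in 1,25 NP veins and from 18.2 to 4401 RPKM in vehicle veins, with P17 highest. TAL1 in P17 was 3.15 RPKM, below the vehicle mean, and P31 was the lowest treated library for both TAL1 and that sum. The part of red cells in the TAL1 values was not tested.

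The SOXF factors, which act downstream of VEGF and in arterial specification, lay on the other side of 0. SOX18 had 1.79, 2.57 and 5.30 RPKM (lowest, median and highest) in 1,25 NP veins and 2.46, 3.39, 3.05, 1.84 and 0.823 RPKM in vehicle veins. P28 was highest and vehicle P17 lowest, and the rest overlapped (log2 difference 0.27, SE 0.30, limma, adjusted p = 0.796; 0.022 without P17). The SOX18 row overlaps that of TCEA2. SOX17 was the lowest of the 29 genes, with 0.422, 0.688 and 1.22 RPKM (lowest, median and highest) in 1,25 NP veins and 0.293, 0.587, 1.02, 0.832 and 0.393 RPKM in vehicle veins. Its groups overlapped almost fully, and single libraries held as few as 63 reads of it (log2 difference 0.18, SE 0.22, limma, adjusted p = 0.808; 0.064 without P13 and 0.30 without P15). SOX7 had 1.81, 2.71 and 3.58 RPKM (lowest, median and highest) in 1,25 NP veins and 3.28, 2.09, 3.23, 1.57 and 3.03 RPKM in vehicle veins, with the same mean of 2.64 RPKM in each group. The SOX7 interval was 0.714- to 1.42-fold (limma, adjusted p = 0.987).

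ERG, the ETS factor that maintains endothelial identity, was among the steadiest genes. Its mean was 9.63 ± 2.46 RPKM in 1,25 NP veins and 10.9 ± 1.499 RPKM in vehicle veins (log2 difference -0.19, SE 0.21, limma, adjusted p = 0.796). The venous factor NR2F2, which vascular smooth muscle and stroma also express, averaged 12.95 ± 3.26 RPKM in 1,25 NP veins and 16.2 ± 8.30 RPKM in vehicle veins (log2 difference -0.22, SE 0.31, limma, adjusted p = 0.820). Of the 6 factors 3 were higher and 3 lower, with a median log2 difference of -0.090. ERG also had the smallest spread of the 29 over the 13 libraries, an SD of 0.29 on the log2 scale, against a median SD of 0.61 and the highest, 1.10, for VWF.

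The 29 genes did not vary as 1 block between animals. Treated P31 held the lowest value of 16 of the 29 genes, and 2 of the 29 lay above their median over libraries there. In treated P42 5 of 29 were above their median, against 23 in treated P21, 21 in vehicle P13 and 20 in vehicle P17. KDR and TEK did not share the low level of P31: they stood there at 23.2 and 13.4 RPKM, inside the vehicle range, while VWF, TIE1, NOS3 and S1PR1 were at their lowest, at 3.20, 1.33, 0.729 and 4.06 RPKM. In treated P28 the order was turned round, with ENG, NOS3 and VWF at 49.9, 11.3 and 72.4 RPKM and KDR, TEK and SOX17 at 6.89, 7.97 and 0.422 RPKM. Vehicle P13 resembled P28 in this, with NOS3, VWF and TIE1 at 13.9, 74.0 and 16.0 RPKM and KDR, TEK and SOX17 at 14.8, 8.87 and 0.293 RPKM.

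Other features of the libraries moved with these values, and their part was not tested. P31 and P42 had the highest share of reads on a U3 small nucleolar RNA row, 6.76% and 4.99%, against 1.56% to 3.94% in the other 11 libraries. P28 and P13 had the lowest size factors, 0.656 and 0.815 against 0.874 to 1.17. They also had the highest share of reads on COL1A1, COL1A2 and COL3A1, 22.5% and 28.0% against 4.03% to 20.01%. Without P13 and P28 the mean over the 29 genes differed by -0.33, with 25 genes lower and 4 higher and 0 past the test. P13 had the highest vehicle mean (3.59) and P28 the highest treated mean (3.45). Leaving out both lowers both groups, so this setting cannot show the part of these features. The difference was -0.22 without P31 alone and -0.27 without P42 alone, and P31 and P42 were not left out together.

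**Figure D4:**
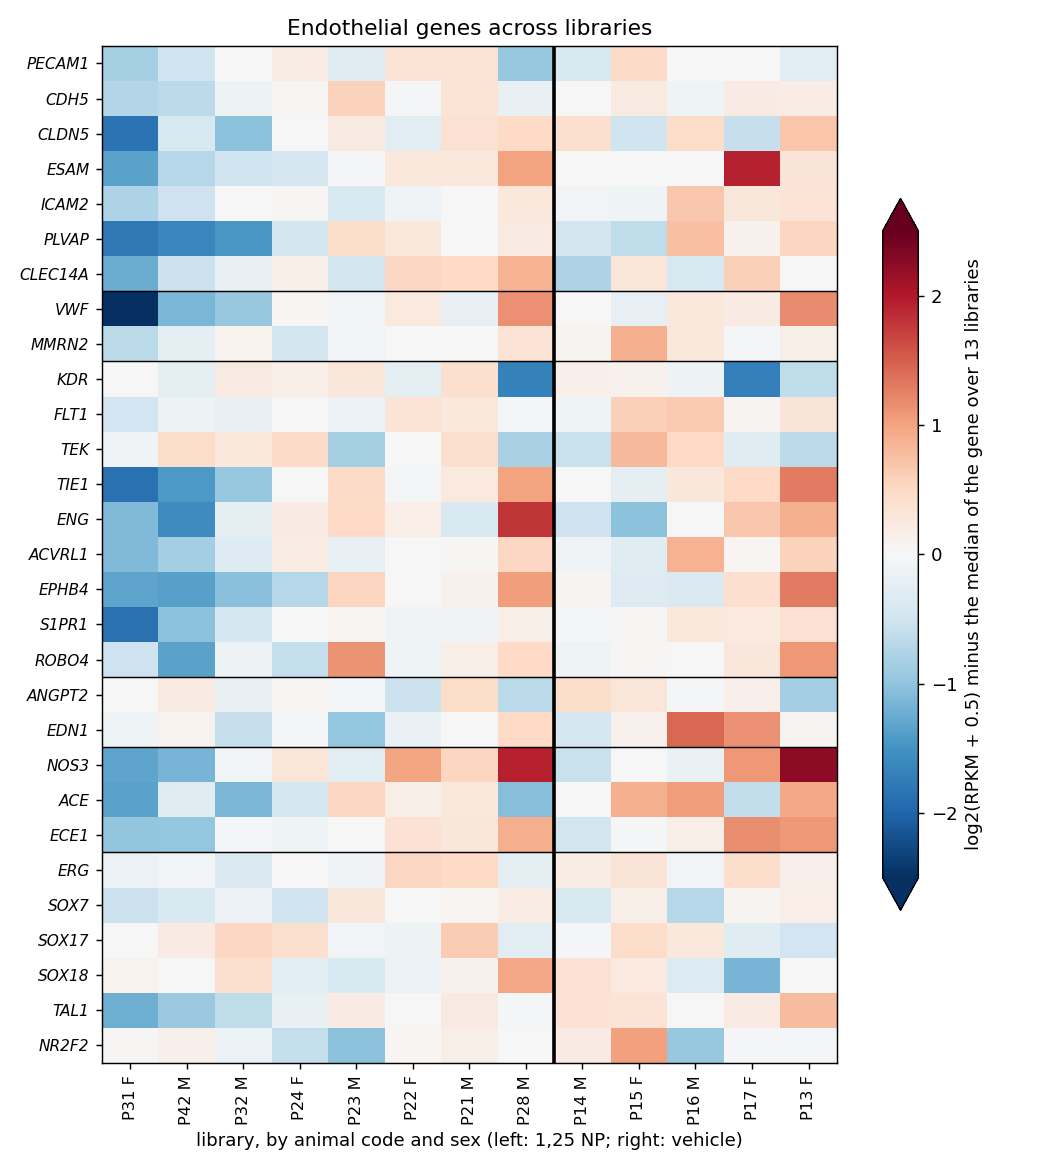
Deviation of log2(RPKM + 0.5) from the median of each gene over 13 libraries (colour) for the 29 endothelial genes (rows, grouped by role) and the libraries (columns, ordered within 1,25 NP at left and vehicle at right by their mean over the genes). P31, at far left, is below the median for most rows, while KDR, TEK and SOX17 are low and ENG, NOS3 and VWF high in P28.

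A row with no symbol in the table, ENSSSCG00000038080 at chromosome 8, 120138279 to 120230966, is named EMCN in the reference table, the gene of the venous and capillary sialomucin endomucin. It had 1.44, 7.96 and 11.1 RPKM (lowest, median and highest) in 1,25 NP veins and 2.59, 5.22, 14.8, 4.13 and 3.09 RPKM in vehicle veins. P31 was the highest treated library and P28 the lowest, the reverse of VWF, and the groups overlapped (log2 difference 0.33, SE 0.49, limma, adjusted p = 0.827).

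The sexes were unevenly spread over the groups, so the comparison was repeated within each. Among males, with 2 vehicle libraries, 17 of the 29 genes were lower in 1,25 NP, beside 64.6% of all genes tested. The median in males was -0.11 over the 29 genes, beside -0.10 over all genes. Among females 25 of 29 were lower, beside 49.9% of all genes. The median in females was -0.49 over the 29 genes, beside 0.0011 over all genes. At an unadjusted p under 0.05 (limma within each sex), 0 of the 29 passed in females and 0 in males. Of all genes, 10.5% passed in females and 1.94% in males, in either direction. The mean over the genes differed by -0.12 in males and -0.54 in females. P31, with 2.28, was 1 of the 3 treated females. P24 and P22 had 3.09 and 3.26, and the vehicle females ran from 3.32 to 3.59. The comparison within females was not repeated without P31. NOS3 differed by 0.56 (SE 0.72) in males and -1.12 (SE 0.68) in females. ESAM differed by 0.014 in males and -1.25 in females, and EPHB4 by 0.00061 in males and -1.15 in females. ACE, PLVAP, ICAM2 and CLDN5 were lower in each sex by close amounts, for ACE -0.87 (SE 0.57) in males and -0.96 (SE 0.56) in females.

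The difference between the sexes was itself tested by an interaction term. It passed for 0 of the 29 genes (limma, smallest adjusted p = 0.824), beside 0.0% of all genes. At an unadjusted p under 0.05 it passed for 1 of the 29, beside 2.92% of all genes. That gene was SOX7, with 0.54 (SE 0.38) in males and -0.47 (SE 0.42) in females, an interaction (males minus females) of 1.02 (SE 0.45, limma, adjusted p = 0.824).

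**Figure D5:**
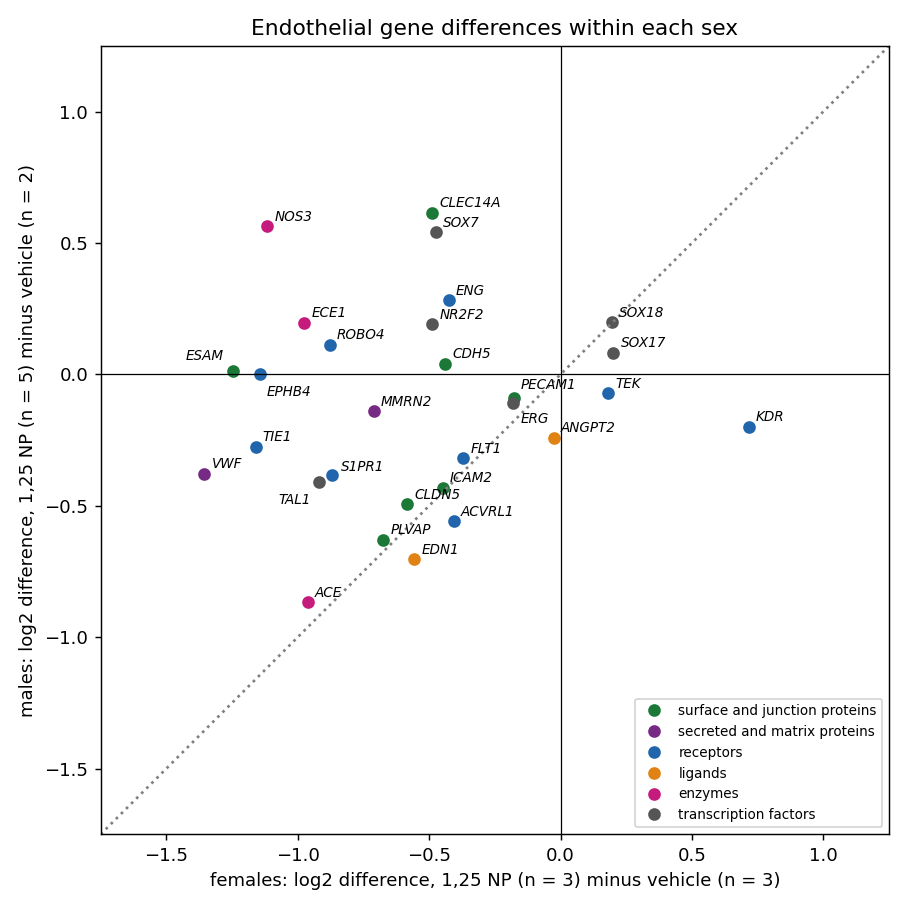
Log2 difference (1,25 NP minus vehicle) of each endothelial gene in males (vertical axis, 5 against 2 libraries) and in females (horizontal axis, 3 against 3), coloured by role; on the dotted line the sexes are equal. ACE lies near that line at -0.87 in males and -0.96 in females, and NOS3 farthest above it at 0.56 in males and -1.12 in females.

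Genes that work with the endothelial ones were counted from lists, and 0 of their tested genes passed in limma. Of 19 tested ligands and partner receptors 6 were higher and 13 lower in 1,25 NP, with a median log2 difference of -0.14. APLN, the apelin ligand made by sprouting endothelium, averaged 3.81 ± 2.61 RPKM in 1,25 NP veins and 1.56 ± 1.23 RPKM in vehicle veins (log2 difference 1.00, SE 0.47, limma, adjusted p = 0.795). NRP2, a VEGF co-receptor of venous and lymphatic endothelium, averaged 9.19 ± 3.07 RPKM in 1,25 NP veins and 13.4 ± 4.11 RPKM in vehicle veins (log2 difference -0.54, SE 0.26). Tip and sprouting genes, 1 of them among the 29, had 5 of 9 higher and 4 lower (median 0.25). ESM1, among the higher ones, averaged 2.83 ± 3.91 RPKM in 1,25 NP veins and 0.909 ± 0.803 RPKM in vehicle veins. Treated P21 alone stood at 12.1 RPKM, against a treated median of 1.59 RPKM (log2 difference 0.77, SE 0.59, limma, adjusted p = 0.795).

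Arterial identity genes were evenly split, 5 higher and 5 lower (median 0.013), and NRP1, a VEGF co-receptor, averaged 59.6 ± 12.9 RPKM in 1,25 NP veins and 53.6 ± 5.85 RPKM in vehicle veins. Of 7 tested venous identity genes, 2 of them among the 29, 5 were lower (median -0.54). ACKR1, a chemokine-binding receptor of venules, averaged 12.2 ± 5.05 RPKM in 1,25 NP veins and 19.5 ± 10.4 RPKM in vehicle veins. Other endothelial transcription factors had 4 higher and 7 lower (median -0.058). GATA2 averaged 1.14 ± 1.06 RPKM in 1,25 NP veins and 1.88 ± 0.81 RPKM in vehicle veins.

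Endothelial activation genes had 7 of 9 higher (median 0.44). SELP, the leukocyte adhesion molecule P-selectin, averaged 4.34 ± 3.54 RPKM in 1,25 NP veins and 1.94 ± 0.91 RPKM in vehicle veins, whereas ICAM1 averaged 20.2 ± 7.24 RPKM in 1,25 NP veins and 33.8 ± 24.4 RPKM in vehicle veins. Of 7 tested flow-responsive genes, NOS3 included, 6 were lower (median -0.40), with 2 at an unadjusted p under 0.05, both lower, beside 3.21% of all genes. KLF2, a factor induced by laminar flow, averaged 4.43 ± 1.79 RPKM in 1,25 NP veins and 7.30 ± 1.76 RPKM in vehicle veins (log2 difference -0.72, SE 0.28, limma, adjusted p = 0.795). NOS2, the inducible nitric oxide synthase, averaged 1.16 ± 0.58 RPKM in 1,25 NP veins and 3.02 ± 2.61 RPKM in vehicle veins (log2 difference -0.93, SE 0.35, limma, adjusted p = 0.795). Vehicle P16 alone stood at 7.65 RPKM, against a vehicle median of 2.19 RPKM, and 6 treated libraries lay below every vehicle one. Genes of the endothelial to mesenchymal transition had 4 higher and 7 lower (median -0.040). ZEB1, with the smallest p of that list, averaged 16.1 ± 4.83 RPKM in 1,25 NP veins and 19.9 ± 4.77 RPKM in vehicle veins. SNAI1 averaged 3.71 ± 1.95 RPKM in 1,25 NP veins and 2.51 ± 0.94 RPKM in vehicle veins.

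Of the tested markers of other cells of the vein, 0 passed, and at an unadjusted p under 0.05 the 3 erythrocyte markers alone did, beside 3.21% of all genes in that direction. All 6 smooth muscle markers were lower, and their sum ran from 335 to 3969 RPKM in 1,25 NP veins and from 403 to 5425 RPKM in vehicle veins, highest in P28 and in P17. All 5 lymphatic markers were lower, with sums of 22.2 to 111 RPKM in 1,25 NP veins and 26.9 to 184 RPKM in vehicle veins, lowest in P31 and in P17. The 3 tested platelet markers were lower by a median of -0.19, with sums of 6.44 to 11.2 RPKM in 1,25 NP veins and 8.40 to 12.4 RPKM in vehicle veins. Pericyte markers split 3 and 3, and of 6 fibroblast markers 4 were higher. T cell markers split 2 higher and 3 lower, and the 2 tested B and plasma cell markers 1 and 1. The number of listed markers at 0 in all 13 libraries was 0. The part of these cells in the endothelial values was not tested.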

How the data were processed

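Libraries were made from 0.5 µg of total RNA with the TruSeq V2 kit, per the labels' protocols. The authors deposited 1 table with a value per gene and animal, taken here as RPKM. Its header names no unit. Value times (length + 1), divided by the smallest nonzero product of the library, was whole within 0.001 for 100% of nonzero values. These whole numbers were taken as reads, the smallest as 1 read. Whole numbers alone cannot tell RPKM from another scaling per library. Read as RPKM, the smallest product also implies a library total. That total equalled the sum of recovered reads in every library, for example 49558486 in P13, as RPKM requires. The sources used here do not give the aligner, counter, pig build, annotation or strand setting. The labels' treatment text and genome build concern mice and were not used. Headers carry group, animal code and sex, so columns were assigned to groups, and separate animals are the replicates.

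limma 3.58.1 in R 4.3.3, with a mean-variance trend, was run on log2(RPKM + 0.5) for the 14579 genes that exceeded 0.5 RPKM in 5 libraries or more. P-values were adjusted by Benjamini and Hochberg with a threshold of 0.05. The test was chosen for the deposited unit, and among the fits recovered reads entered only the voom alternative. Recovered reads also gave the library totals, the read counts and the shares of reads. All 29 genes passed the filter. Defining markers and the 6 smallest p in each direction are described by library, as are list genes by up to 3 smallest p. Genes and lists were chosen with earlier results of these data known. Of the 29 identifiers, 2 have another symbol and 3 none in the reference table, and 8 rows overlap another. The overlapping rows are those of PECAM1, ESAM, ICAM2, MMRN2, ENG, EPHB4, ANGPT2 and SOX18. Alternatives were pseudocounts of 0.1 and 1, no filter, median-of-ratios scaling, voom, array weights, sex and left-out libraries. Figures used matplotlib 3.10.9.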

Additional observations from a re-analysis of the deposited data

Results flagged for a closer look

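Of 60 groups of values checked (29 genes and their mean, in each group), 2 held a library set apart from the others by a gap too large for its group at the 95% level, where chance gives about 1 in 20. ESAM was at 51.7 RPKM in vehicle library P17, against 13.1 to 16.7 RPKM in the other 4. KDR was at 6.89 RPKM in 1,25 NP library P28, against 19.7 to 30.7 RPKM in the other 7.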

How the results depend on the processing

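The count of endothelial genes called was 0 under all 23 alternatives, as was that of the lists. The count for the interaction with sex was 0 under the 18 alternatives run for it. The smallest adjusted p of any of the 29 was 0.290 (limma with array quality weights). The difference of the mean over the genes stayed negative, from -0.39 without P28 to -0.22 without P31. Over the other settings this mean difference ran from -0.12 in males to -0.54 in females, beside medians over all genes of -0.10 and 0.0011. Pseudocounts, scaling and filter changed no sign. Without VWF and ICAM2 it was -0.30, as it was with the EMCN row; these and the fit without P13 and P28 were chosen after seeing the data. The 6 higher genes became 3 without P21. Of the 29 genes, 14 kept their sign throughout. In males only, CDH5 (0.041), ESAM (0.014), ENG (0.28), EPHB4 (0.00061), ROBO4 (0.11), NOS3 (0.56), ECE1 (0.20) and NR2F2 (0.19) were higher, and KDR (-0.20) and TEK (-0.071) lower. With array weights PECAM1 (0.20), ENG (0.069) and NOS3 (0.22) were higher and SOX18 (-0.025) lower. CLEC14A and SOX7 were at -0.49 and -0.47 in females and at -0.0086 and -0.0062 with voom. Without P13 and P28 CLEC14A was at -0.11 and TEK at -0.013. With 1 library left out, differences ran from -0.17 to 0.17 for CLEC14A, -0.0027 to 0.53 for KDR, -0.13 to 0.24 for TEK, -0.35 to 0.14 for ENG, -0.29 to 0.028 for ANGPT2, -0.67 to 0.031 for NOS3, -0.13 to 0.087 for SOX7 and -0.47 to 0.030 for NR2F2. The count at an unadjusted p under 0.05, 2 with all libraries, was 0 without P13, P31 or P32, beside 2.82%, 2.52% and 2.37% of all genes, and 4 without P28, beside 15.2% of all genes. That count was also 0 in females only and in males only, beside 10.5% and 1.94% of all genes. The median SE of 0.33 limits what could be detected: 15 of 29 intervals reach a halving. No paired analysis was possible because the columns carry no replicate numbers and the groups are separate animals. Replicate numbers alone would not pair these animals.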
